A study of Mus musculus with 4 samples.

Results

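Interferon-stimulated genes were examined as a set of 41 named genes, out of 46166 genes in the deposited tables, in γδ T cells sorted from mouse epididymal fat. A gene counted as a member where its symbol stood in the name of a table row, and its values were taken from that row. The set holds 9 IFIT and OAS genes, 8 genes of the GBP and IRG families of GTPases, and 24 other interferon-stimulated genes. For 5 members the row also carried another gene, and these rows keep both names (Gbp10/Gbp6, Gbp2b/Gbp5, Igtp/Irgm2, Eif2ak2/Gm6548 and Ak029757/Herc6).

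The cells came from male C57Bl/6 mice, 16 to 22 weeks old, that carry a GFP reporter of PLZF, a transcription factor of innate-like lymphocytes encoded by Zbtb16. All libraries share this reporter strain and no treatment is recorded. There were 2 libraries of PLZF+ cells (A7 and B7) and 2 of PLZF- cells (A6 and B6), each from cells pooled from 10 mice, so single mice are not resolved. Whether the subsets were sorted from the same pools is not stated. The assay was SMART-seq2, which copies whole transcripts from few cells. Which antibodies defined the sort is not stated in the sources used.

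The libraries differed in depth. The estimated reads, without the rRNA precursor Rn45s, numbered 744569 (A6) and 981885 (B6) for PLZF- cells and 1837514 (A7) and 2035080 (B7) for PLZF+ cells. Zbtb16 itself had 310 and 699 normalized counts in A6 and B6 and 2899 and 2921 in A7 and B7, and the row of the δ chain locus (Tcrd/Trdd2) was detected in every library, at 656 and 844 against 2630 and 2525. The CD3 chains and Cd247 were higher in PLZF+ cells in 4 of 4 cases by limma at the 0.05 threshold. Markers of natural killer, ILC2 and dendritic cells were higher in the PLZF- libraries, with the values given after the counts of members.

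Interferons come in types with separate receptors. Type I interferons bind IFNAR1 and IFNAR2, signal through JAK1 and TYK2, and act on genes that carry the interferon-stimulated response element (ISRE). Interferon gamma binds IFNGR1 and IFNGR2, signals through JAK1 and JAK2, and acts on genes that carry the gamma-activated site (GAS). IFIT and OAS genes are classic type I targets, while GBP and IRG genes respond strongly to interferon gamma, and many genes respond to both.

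The promoters below are shown because they carry an ISRE core, a GAS core or both in members described in the results. They run 5′ to 3′ on the gene's own strand and end before the annotated start. They are from RefSeq on GRCm38.p6. Capitals mark an ISRE core, searched as GAAA, any 2 bases and GAAA again, or a GAS core, searched as TTCNNNGAA. Both strands were searched, so an ISRE core on the other strand reads TTTC, any 2 bases and TTTC.
Ifit1 (chr19:34640751-34640870, + strand): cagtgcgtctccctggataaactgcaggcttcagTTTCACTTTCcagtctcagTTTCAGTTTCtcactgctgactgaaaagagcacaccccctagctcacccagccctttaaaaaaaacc
Oas1a (chr5:120907526-120907645, - strand): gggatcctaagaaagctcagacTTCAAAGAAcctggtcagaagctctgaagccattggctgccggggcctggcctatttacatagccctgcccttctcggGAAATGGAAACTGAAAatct
Gbp3 (chr3:142559906-142560025, + strand): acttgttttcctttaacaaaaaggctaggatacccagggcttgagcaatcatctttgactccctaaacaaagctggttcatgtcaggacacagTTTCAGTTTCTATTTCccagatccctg
Gbp7 (chr3:142530216-142530335, + strand): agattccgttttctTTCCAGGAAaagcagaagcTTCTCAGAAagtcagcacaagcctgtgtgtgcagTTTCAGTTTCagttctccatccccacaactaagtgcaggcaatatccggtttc
Igtp (chr11:58199436-58199555, + strand): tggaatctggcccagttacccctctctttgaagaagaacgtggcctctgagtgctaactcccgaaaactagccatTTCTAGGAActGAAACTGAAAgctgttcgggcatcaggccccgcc

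Of the 41 members, 29 had a RefSeq promoter entry, and the 250 bases before the start were searched. The ISRE core letters stood in 15 of these 29 members, against 3.46% of all 27025 genes with an entry. They stood in 5 of 8 IFIT and OAS members and in 6 of 6 GBP and IRG members. Oas2, Gbp4 and Gbp6 had no entry and were not searched. The GAS core letters stood in 8 of 29 members, against 8.13% of all genes, in 2 of 8 IFIT and OAS members and in 3 of 6 GBP and IRG members. ISRE cores overlap each other in Oas1a, Oas1g, Gbp3, Irgm1, Isg15 and Bst2, and in Bst2 an ISRE and a GAS core overlap too. A match describes letters and does not show a bound site.

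One row of the set passed the test between the subsets. The row shared by Gbp10 and Gbp6 was higher in PLZF+ cells, and no member was called lower. Values are the authors' normalized counts, and fold changes are PLZF+ over PLZF- on log2(normalized count + 1), with the standard error (SE) from limma and Benjamini-Hochberg adjusted p over 9282 genes. A mean of at least 10 normalized counts over the 4 libraries was required, and 26 of the 41 members met it. Thus 1 of 26 members was called, where 7.46% of all genes tested were. It was called higher, as 2.47% of all genes were, and 0 of 26 were called lower, as 4.99% were. At an unadjusted p under 0.05, 10 of 26 passed, against 20.3% of all genes tested. The authors' deposited table also tested 26 members, with Isg15 and Isg20 in place of Ifit2 and Oas3. It called 2 of these 26 at q under 0.05, against 5.73% of its 9226 tested rows (1.82% higher and 3.91% lower). With 2 libraries a subset, these p-values rest on a spread shared between genes.

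The direction of the 26 was uneven. The fold change was negative for 20 and positive for 6, with a median of -0.64, against -0.027 for all 9282 genes tested. Both PLZF- libraries lay above both PLZF+ libraries for 15 of the 26, where 27.2% of all genes tested did so. The opposite order was seen for 2 of the 26, against 24.1% of all genes tested. The IFIT and OAS members and the GBP and IRG members had medians of 0.29 (3 tested) and -0.062 (7 tested), and the other members had a median of -0.76 (16 tested). With no filter, the median log2 fold change of IFIT and OAS members was -0.74. These counts and medians cover only members that met the minimum, so they describe the set and are not tests of it.

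**Figure D1:**
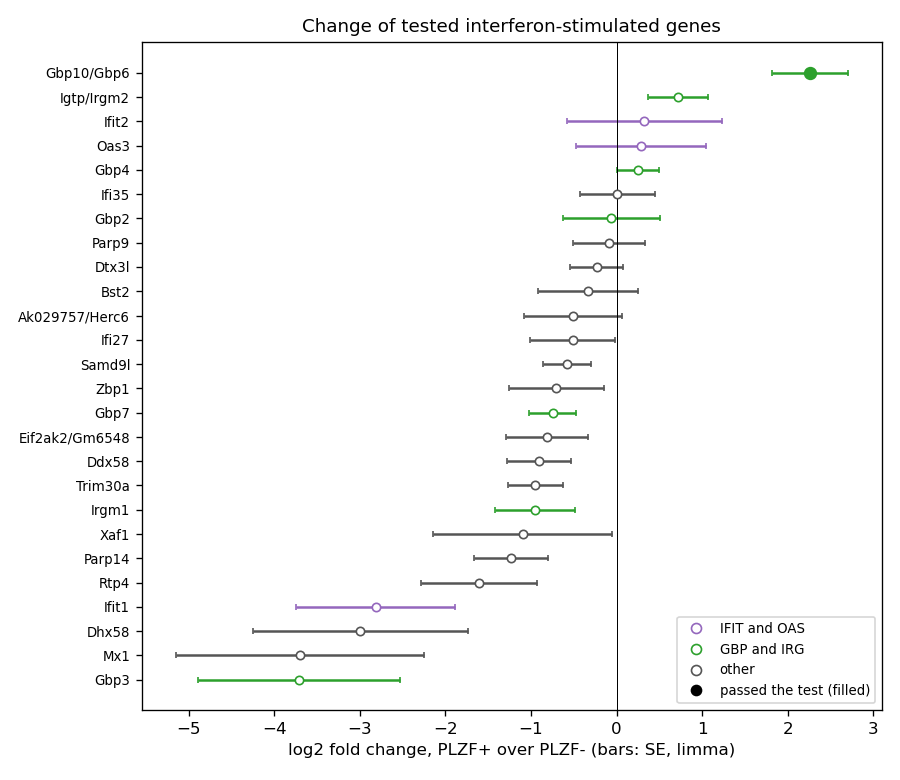
Log2 fold change (PLZF+ over PLZF-, horizontal axis) of the 26 tested members from limma, with bars for the SE and colours for the 3 groups. The filled point, Gbp10/Gbp6 at 2.26, is the one that passed the test, and 20 of the 26 points lie below 0.

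Markers of other cells also differed between the libraries. In 9 rows of natural killer and ILC1 markers, 8 of 8 tested were lower in PLZF+ cells, and the summed normalized counts were 3045 and 2800 in PLZF- cells against 96.0 and 24.6. Some γδ T cells express such genes themselves. In 12 rows of plasmacytoid dendritic cell markers, 3 of 5 tested were lower, with sums of 673 and 345 against 13.6 and 14.5, and Siglech had 145 and 90.2 in PLZF- cells and 0 and 0 in PLZF+ cells. In 8 rows of conventional dendritic cell markers, 1 of 5 tested was lower, with sums of 433 and 173 against 44.0 and 37.9. ILC2 markers were lower in 4 of 5 tested of 8 rows, with sums of 7045 and 4821 against 2426 and 2546. Rora, the tested row that did not pass, made up most of the PLZF+ sums, with 3082 and 2190 against 2156 and 2357. In 8 rows of mast cell and neutrophil markers, the sums were 737 and 415 against 180 and 30.1. The neutrophil genes S100a8, S100a9, Ly6g and Csf3r were listed at 0 in every library. Of the 3 tested, Kit was lower, while Mcpt4 and Cpa3 overlapped between the subsets and did not pass.

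In 9 rows of macrophage and monocyte markers, C1qa, C1qb, C1qc, Mrc1 and Fcgr1 were listed at 0 in all 4 libraries. The macrophage and monocyte sums were 77.6 and 92.7 against 13.6 and 32.4. Most of these sums was Ctss, with 57.4 and 64.6 against 12.4 and 31.8, which did not pass the test. Lyz2 had 20.2 and 6.10 against 1.24 and 0, and Cd68 had 22.0 in B6 and 0 elsewhere. In sorted bulk samples, fewer cells of a type and less RNA per cell cannot be told apart. The part of these other cells in the values of Ifit1, Gbp3, Gbp7, Mx1 and the other genes higher in PLZF- libraries was not tested. Gbp10/Gbp6 was higher in the libraries where these marker sums were lower and where the CD3 chains and Cd247 were higher. The part of cell composition in the Gbp10/Gbp6 values was not tested either.

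The guanylate-binding proteins (GBPs) are large GTPases that coat and break open the vacuoles of intracellular pathogens. Their mouse genes lie in a cluster on chromosome 3 (Gbp5, Gbp7, Gbp3 and Gbp2) and another on chromosome 5 (Gbp4, Gbp6 and relatives). The Gbp10/Gbp6 row, at chr5:105215699-105293699 (GRCm38), held 57.4 (A6) and 24.4 (B6) normalized counts in PLZF- cells, against 173 (A7) and 194 (B7) in PLZF+ cells. Both PLZF+ libraries lay above both PLZF- libraries, and the spread within PLZF- cells (40.9 ± 23.3, SD, n = 2) was wider than within PLZF+ cells (184 ± 14.7, SD, n = 2). The log2 fold change was 2.26 ± 0.45 (SE) with an adjusted p of 0.0083 by limma. In the authors' deposited table the same row had a q of 0.00601. Without library A7 or B7 the call was lost, with adjusted p of 0.154 and 0.218 by limma, while the fold change stayed between 1.66 and 2.86 whichever library was left out. It was also lost with no filter (0.0559), in the FPKM table (0.0845) and in limma without trend and robust fit (0.14). Gbp10 and Gbp6 are closely related neighbours, and the row does not say which of them was read.

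Gbp9, a neighbour of these genes on chromosome 5 that is not among the 41, moved the other way. It held 272 and 272 normalized counts in A6 and B6 and 98.5 and 87.1 in A7 and B7. The Gbp9 log2 fold change was -1.54 ± 0.29 (SE) with an adjusted p of 0.00655 by limma, and leaving out any 1 library raised this p to between 0.0556 and 0.119. Gbp4, also in this cluster, had 349 and 282 normalized counts in PLZF- cells and 418 and 334 in PLZF+ cells. The Gbp4 groups overlap, with a log2 fold change of 0.25 ± 0.24 (SE) and an adjusted p of 0.61 by limma. Exons of Gbp4 overlap those of Gbp8 and Gbp9 on the same strand in GENCODE M21, which limits how reads were divided between them.

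On chromosome 3 the sign was negative in each of the 3 genes tested, and none passed. Gbp7 (chr3:142530342-142550149) had 315 and 239 normalized counts in A6 and B6 and 165 and 161 in A7 and B7. The groups did not overlap, and the log2 fold change was -0.75 ± 0.27 (SE) with an adjusted p of 0.143 by limma. Gbp3 (chr3:142560026-142573209), whose promoter is shown above with its paired ISRE cores, had 59.0 and 35.4 normalized counts in PLZF- cells, 0 in A7 and 11.7 in B7. Its log2 fold change was -3.71 ± 1.18 (SE) with an adjusted p of 0.0881 by limma. With 1 library left out that fold ranged from -5.55 to -1.88, the latter without A7, where Gbp3 is listed at 0.

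Gbp2 split by library and not by subset. It had 45.5 and 101 normalized counts in A6 and B6 and 37.8 and 112 in A7 and B7. The B libraries were high and the A libraries low, the log2 fold change was -0.062 ± 0.56 (SE), and its sign turned with equal library totals (0.045). The Gbp2b/Gbp5 row, under the minimum, had 9 and 7 estimated reads in PLZF- cells and 0 and 0 in PLZF+ cells. Against 3 reads per library in PLZF+ cells this is at least 6.72-fold lower in normalized counts. Such bounds and read intervals cover counting error at most, since PCR copies are not independent molecules. The read intervals given below pool the reads of both libraries of a subset, so they leave out the spread between libraries.

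**Figure D2:**
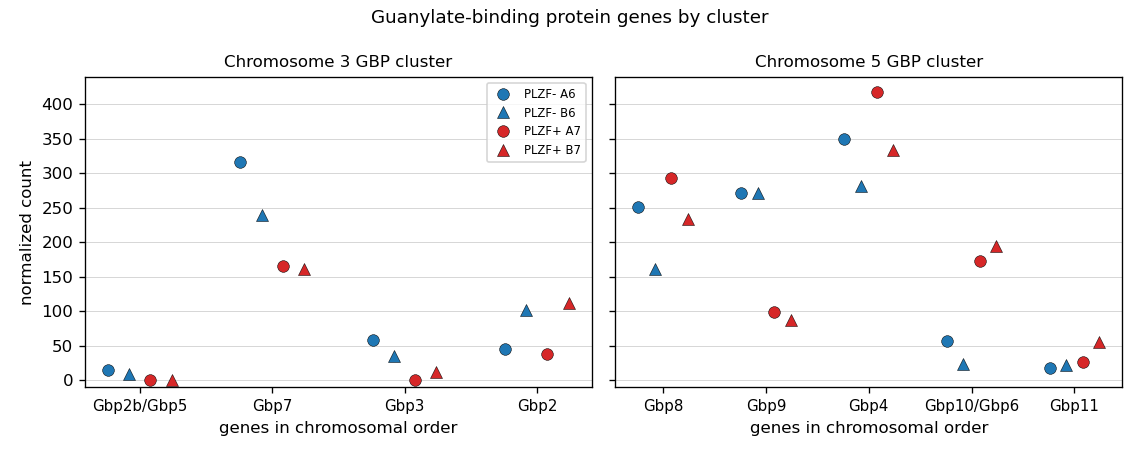
Normalized counts (vertical axis) of GBP genes in the 4 libraries, in chromosomal order within the chromosome 3 and chromosome 5 clusters; blue points are PLZF- and red points PLZF+ libraries. In Gbp10/Gbp6 the PLZF+ libraries (173 and 194) stand above the PLZF- libraries (57.4 and 24.4), as they do at lower counts in Gbp11, which did not pass the test, while in Gbp9 they stand below.

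The immunity-related GTPases (IRGs) act with the GBPs on pathogen vacuoles. The Igtp/Irgm2 row (chr11:58199556-58222783) had 177 and 90.2 normalized counts in PLZF- cells and 221 and 196 in PLZF+ cells. Both PLZF+ libraries were above both PLZF- libraries, with a log2 fold change of 0.72 ± 0.35 (SE) and an adjusted p of 0.28 by limma. Irgm1 (chr11:48861968-48871683), a regulator of the other IRGs, had 106 and 107 normalized counts in PLZF- cells and 34.7 and 85.9 in PLZF+ cells. The Irgm1 log2 fold change was -0.95 ± 0.47 (SE) with an adjusted p of 0.28 by limma. The value in A7 was less than that in B7, and the change was -0.31 without A7. Per length, Igtp/Irgm2 was the member with the highest mean FPKM in PLZF+ cells (63.5), followed by Gbp4 (45.3). In PLZF- cells the same rows had 45.3 and 38.3, behind Ifi27 (51.6) and Samd9l (49.3). The A6 and B6 values of Igtp/Irgm2 were 61.4 and 29.3 FPKM, so the order of the leading genes in PLZF- cells lies within their spread.

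The IFIT proteins bind foreign RNA 5′ ends and restrict its translation. Ifit1 (chr19:34640871-34650009) had 42.2 and 28.1 normalized counts in A6 and B6 and 6.81 and 2.23 in A7 and B7. The groups did not overlap. Its log2 fold change was -2.82 ± 0.93 (SE), with an adjusted p of 0.1 by limma, and it did not pass. Ifit2, a neighbour on chromosome 19, had 6.75 and 20.7 normalized counts in PLZF- cells and 21.7 and 10.6 in PLZF+ cells. The Ifit2 groups overlap, and its log2 fold change was 0.32 ± 0.91 (SE) with an adjusted p of 0.879 by limma. Ifit3 had 2 and 9 estimated reads in PLZF- cells and 1 and 0 in PLZF+ cells, under the minimum for a test. The ratio of PLZF- to PLZF+ for Ifit3 was 26.5, with an exact 95% interval of 3.86 to 1142.

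The OAS enzymes sense double-stranded RNA and make the 2-5A messenger that activates RNase L. Oas3 (chr5:120753098-120777661) was the OAS gene that met the minimum, with 10.1 and 56.1 normalized counts in A6 and B6 and 26.0 and 34.0 in A7 and B7. Both PLZF+ values lay between the PLZF- values, and the log2 fold change was 0.29 ± 0.76 (SE) with an adjusted p of 0.871 by limma. Oas1a had 7 and 8 estimated reads in PLZF- cells and 0 and 3 in PLZF+ cells, a PLZF- to PLZF+ ratio of 12.1 with an exact 95% interval of 3.41 to 65.0. Oas1a therefore had more reads in the shallower libraries. Oasl1 had 1 read in A6, and Oasl2 had 2 in A6 and 1 in B7. Oas1g and Oas2 were listed at 0 in all 4 libraries. The 6 Oas1 relatives outside the set (Oas1b to Oas1f and Oas1h) were all under the minimum too.

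**Figure D3:**
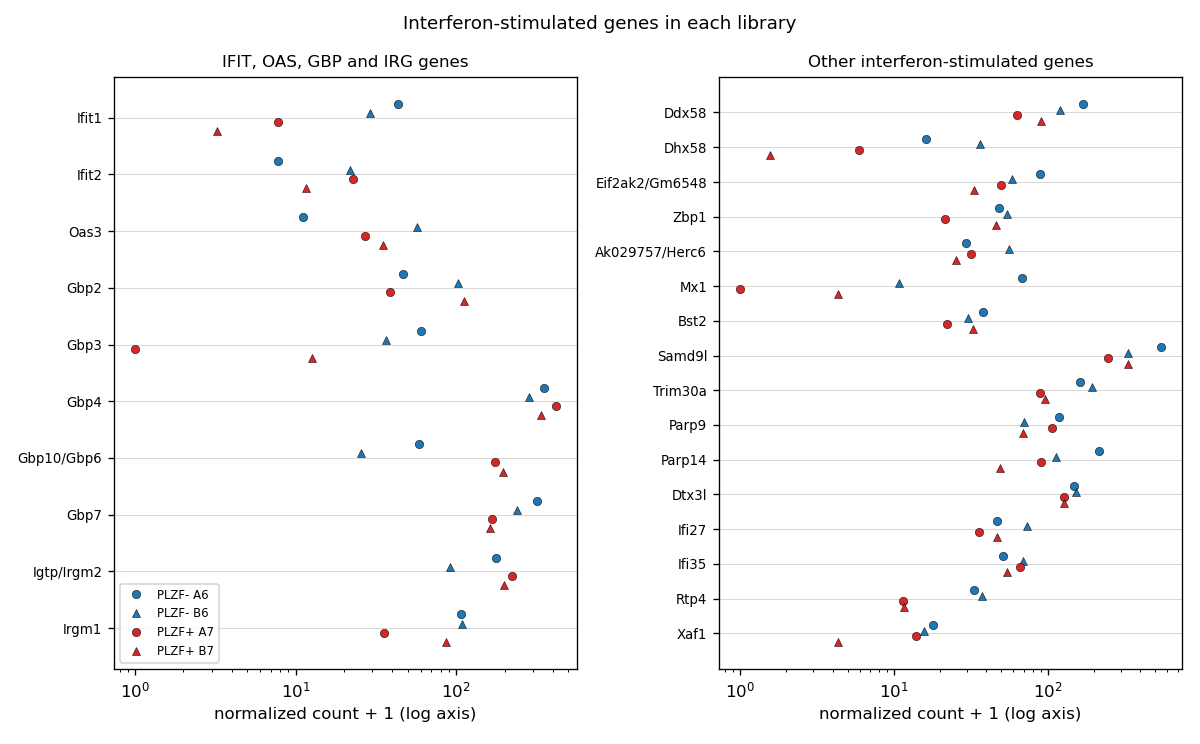
Normalized count + 1 (horizontal log axis) of the 26 tested members in each library; blue points are PLZF- and red points PLZF+ libraries, circles A and triangles B. Red points lie left of both blue points for Ifit1, Gbp3, Gbp7 and Parp14, and right of both for Gbp10/Gbp6 and Igtp/Irgm2.

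Of the sensors of viral nucleic acid, none of the 4 tested passed. Ddx58, which encodes RIG-I, had 169 and 120 normalized counts in A6 and B6 and 62.6 and 89.8 in A7 and B7. The log2 fold change of Ddx58 was -0.91 ± 0.37 (SE), with an adjusted p of 0.193 by limma and no overlap between the groups. Dhx58, which encodes the RIG-I-like receptor LGP2, had 15.2 and 35.4 normalized counts in PLZF- cells and 4.95 and 0.558 in PLZF+ cells. Its log2 fold change was -2.99 ± 1.26 (SE) with an adjusted p of 0.203 by limma. The Z-nucleic acid sensor Zbp1 had 47.2 and 53.7 normalized counts in PLZF- cells and 20.4 and 45.2 in PLZF+ cells, with a log2 fold change of -0.71 ± 0.56 (SE) and an adjusted p of 0.52. The lower PLZF+ value was again that of A7. The row of Eif2ak2, the double-stranded RNA kinase PKR, shared with Gm6548, had 87.7 and 57.3 normalized counts in PLZF- cells and 48.9 and 32.4 in PLZF+ cells. Its log2 fold change was -0.82 ± 0.48 (SE) with an adjusted p of 0.373 by limma, but it was 0.32 in the FPKM table, so its direction is not settled. Ifih1, which encodes MDA5, had 3 and 15 estimated reads in PLZF- cells and 17 and 7 in PLZF+ cells.

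ISG15 is a ubiquitin-like protein that is joined to other proteins. In mouse HERC6 attaches it, and USP18 removes it and dampens IFNAR signalling. The Ak029757/Herc6 row had 28.7 and 54.9 normalized counts in A6 and B6 and 31.0 and 24.6 in A7 and B7, overlapping groups with a log2 fold change of -0.51 ± 0.58 (SE). Isg15 had 6 and 4 estimated reads in PLZF- cells and 10 and 4 in PLZF+ cells, few in every library. Usp18 had 7 and 1 estimated reads in PLZF- cells and 0 and 1 in PLZF+ cells, a PLZF- to PLZF+ ratio of 19.3 with an exact 95% interval of 2.59 to 856.

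Genes grouped as antiviral effectors were mostly low. Mx1, of the dynamin-like GTPase family, had 67.5 and 9.76 normalized counts in A6 and B6, 0 in A7 and 3.35 in B7. Library A6 stood far above the other 3, and the log2 fold change of Mx1 was -3.70 ± 1.45 (SE) with an adjusted p of 0.173 by limma. Bst2, the tetherin that holds budding virions, had 37.1 and 29.3 normalized counts in PLZF- cells and 21.1 and 31.8 in PLZF+ cells. Its groups overlap, with a log2 fold change of -0.34 ± 0.58 (SE). Samd9l, a restriction factor that acts on translation, was the most counted of these genes at 545 and 334 in PLZF- cells and 245 and 334 in PLZF+ cells. B6 and B7 were almost equal for Samd9l, and its log2 fold change was -0.58 ± 0.28 (SE) with an adjusted p of 0.276 by limma.

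Trim30a, a TRIM family protein, had 162 and 194 normalized counts in A6 and B6 and 87.9 and 94.9 in A7 and B7. The Trim30a values were close within each subset and did not overlap, with a log2 fold change of -0.95 ± 0.32 (SE) and an adjusted p of 0.112 by limma. The other effectors were under the minimum. Rsad2 (viperin) had 0, 6, 4 and 5 estimated reads in A6, B6, A7 and B7, and its neighbour Cmpk2 had 0, 8, 27 and 15. The exonuclease gene Isg20 had 6, 2, 19 and 23 reads in the same order. In normalized counts Isg20 was 6.28 ± 5.43 in PLZF- cells and 12.3 ± 0.755 in PLZF+ cells (SD, n = 2), higher in both PLZF+ libraries but not tested. Mx2, typed as a polymorphic pseudogene in GENCODE M21, had 6 reads in A7 and 0 elsewhere.

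PARP9 works in a complex with the ubiquitin ligase DTX3L, and PARP14 is a related ADP-ribosyltransferase. Parp9 and Dtx3l lie side by side on chromosome 16 on opposite strands with overlapping exons, and whether counting used strand is not stated in the sources used. Parp14 (chr16:35832874-35871544) had 216 and 112 normalized counts in A6 and B6 and 89.2 and 48.0 in A7 and B7. The groups did not overlap, and its log2 fold change was -1.24 ± 0.44 (SE) with an adjusted p of 0.127 by limma. The authors' deposited table gave it a q of 0.0218. Parp9 had 118 and 69.5 normalized counts in PLZF- cells and 106 and 68.6 in PLZF+ cells, high in both A libraries, with a log2 fold change of -0.089 ± 0.42 (SE). The Parp9 sign turned with equal library totals (0.019). Dtx3l had 147 and 152 normalized counts in PLZF- cells and 127 and 127 in PLZF+ cells. Dtx3l had a log2 fold change of -0.23 ± 0.31 (SE) with an adjusted p of 0.723 by limma.

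The remaining 5 members have other roles. Rtp4, a transporter protein that lowers type I responses, had 32.1 and 36.6 normalized counts in A6 and B6 and 10.5 and 10.6 in A7 and B7. Although the Rtp4 groups did not overlap, its adjusted p was 0.206 by limma with a log2 fold change of -1.61 ± 0.68 (SE). Xaf1, a pro-apoptotic protein, had 16.9 and 14.6 normalized counts in PLZF- cells and 13.0 and 3.35 in PLZF+ cells, with an adjusted p of 0.608. Ifi27 had 45.5 and 72.0 normalized counts in PLZF- cells and 34.7 and 45.8 in PLZF+ cells. Ifi35 had 50.6 and 67.9 normalized counts in PLZF- cells and 64.9 and 53.7 in PLZF+ cells. Both sets of groups overlap, and the Ifi35 log2 fold change was 0.0090 ± 0.44 (SE). Ifi44 was listed at 0 in all 4 libraries.

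Among the genes that make and receive the signal, no type I or type III interferon was detected beyond single reads. Of 19 ligand genes, the 17 others besides Ifng and Ifnk had 0 estimated reads in every library, and Ifnk had 1 read in A7. Ifng, the type II interferon, had 48.9 and 4.88 normalized counts in A6 and B6, 0.619 in A7 and 0 in B7. That is 29, 4, 1 and 0 estimated reads, led by A6, and its adjusted p was 0.283 by limma. The natural killer and ILC1 marker sums were also higher in PLZF- cells (3045 and 2800 against 96.0 and 24.6). These sums were close in A6 and B6, while Ifng was far lower in B6 than in A6. The part of such cells in the Ifng values was not tested.

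Of 6 interferon receptor rows, 5 were tested, and 1 was called higher and 1 lower, where 2.47% and 4.99% of all genes tested were. Ifngr2, the signalling chain of the interferon gamma receptor, had 81.0 and 129 normalized counts in A6 and B6 and 447 and 545 in A7 and B7. It was higher in PLZF+ cells, with a log2 fold change of 2.26 ± 0.30 (SE) and an adjusted p of 0.000478 by limma. Ifngr2 did not pass in limma without trend and robust fit (adjusted p of 0.0903). Its partner Ifngr1 was high in all libraries, with 3114 and 3178 normalized counts in PLZF- cells and 2798 and 3532 in PLZF+ cells. The log2 fold change of Ifngr1 was -0.00095 ± 0.16 (SE) and its adjusted p 0.998 by limma.

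Ifnar1, a chain of the type I receptor, was lower in PLZF+ cells. It had 844 and 817 normalized counts in PLZF- cells and 333 and 352 in PLZF+ cells, a log2 fold change of -1.28 ± 0.20 (SE) with an adjusted p of 0.00188 by limma. Ifnar1 did not pass in the FPKM table (0.0583 by limma) or in limma without trend and robust fit (0.179). Its partner Ifnar2 had 164 and 210 normalized counts in PLZF- cells and 65.7 and 125 in PLZF+ cells, a log2 fold change of -1.02 ± 0.37 (SE) with an adjusted p of 0.142 by limma. The Ifnar1 call was lost without A7 (0.0739) or B7 (0.0691), and the Ifngr2 call without B7 (0.0563).

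Downstream of the receptors, 2 of 5 JAK and STAT genes and 2 of 9 IRF genes were called, all lower in PLZF+ cells, where 4.99% of all genes tested were lower. Jak1 had 1650 and 1399 normalized counts in A6 and B6 and 748 and 754 in A7 and B7, with a log2 fold change of -1.02 ± 0.18 (SE) and an adjusted p of 0.00385 by limma. Jak2 had 665 and 415 normalized counts in PLZF- cells and 139 and 51.9 in PLZF+ cells, with a log2 fold change of -2.61 ± 0.42 (SE) and an adjusted p of 0.00236 by limma. In the FPKM table neither passed, with adjusted p of 0.213 for Jak1 and 0.0665 for Jak2 by limma. Neither passed in limma without trend and robust fit (0.262 and 0.143). The Jak1 call was lost without A6 (0.0514), A7 (0.127) or B7 (0.14), and the Jak2 call without A6 (0.129) or B7 (0.0508). Stat2, a factor that carries the type I signal to the nucleus, did not pass, with 59.0 and 42.7 normalized counts in PLZF- cells and 42.1 and 50.2 in PLZF+ cells. The log2 fold change of Stat2 was -0.12 ± 0.48 (SE).

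Irf8, a factor of myeloid and plasmacytoid dendritic cells, was lower in PLZF+ cells at 4.95 and 16.2 normalized counts, against 241 and 159 in PLZF- cells. The log2 fold change of Irf8 was -4.28 ± 0.59 (SE) with an adjusted p of 0.0007 by limma. Without A6 that adjusted p was 0.0733. The sums of plasmacytoid dendritic cell markers (673 and 345 against 13.6 and 14.5) moved with Irf8, and their part in it was not tested. Irf1, itself induced by interferon gamma, had 270 and 240 normalized counts in PLZF- cells and 131 and 112 in PLZF+ cells, with a log2 fold change of -1.07 ± 0.29 (SE) and an adjusted p of 0.041 by limma. That call was lost whichever library was left out (adjusted p of 0.0891 to 0.355), as it was with equal library totals (0.0679). Irf7 and Irf9, which sustain type I responses, did not pass. Irf7 had 69.2 and 92.7 normalized counts in PLZF- cells and 66.9 and 29.0 in PLZF+ cells, and Irf9 had 77.6 and 59.8 against 53.3 and 50.2.

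**Figure D4:**
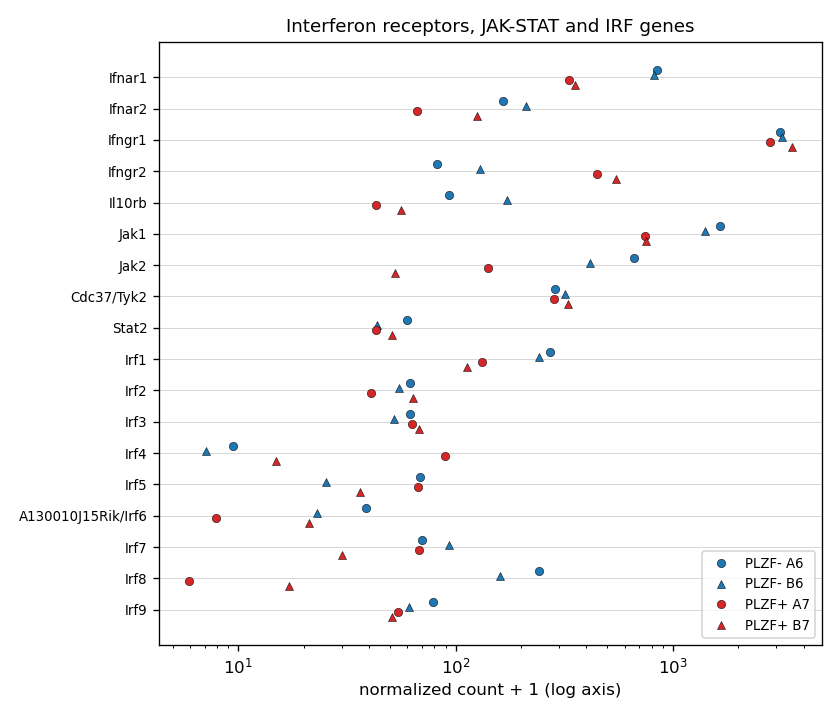
Normalized count + 1 (horizontal log axis) of interferon receptor, JAK-STAT and IRF genes in each library; blue points are PLZF- and red points PLZF+ libraries. Ifngr2 lies to the right in PLZF+ cells (447 and 545), Ifnar1, Jak1, Jak2, Irf1 and Irf8 lie to the left, and the points of Ifngr1 and Stat2 overlap between the subsets.

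Over the whole pathway list, which besides those genes holds inhibitors, sensing adaptors and further interferon-stimulated genes, 144 rows were listed and 95 tested. Of these, 4 were higher and 18 lower in PLZF+ cells, where 2.47% and 4.99% of all genes tested were, and their median log2 change was -0.47. The 4 higher were Ifngr2, Ptpn6 (the phosphatase SHP-1, log2 fold change 1.497), Lgals3bp (1.26) and Ly6e (0.88). Apart from the receptor, JAK and IRF genes and Gbp9, those lower included Epsti1 (-2.65), the giant GTPase gene Gvin1 (-2.45), the schlafen gene Slfn8 (-2.01) and Trim30d (-3.06). A separate row, Gm4070/Gvin1, had a log2 fold change of -2.52 and did not pass (adjusted p of 0.0613 by limma). Mavs, the adaptor on which RIG-I and MDA5 signal, had 82.7 and 56.1 normalized counts in PLZF- cells and 3.72 and 10.0 in PLZF+ cells. Its log2 fold change was -3.26 ± 0.70 (SE) with an adjusted p of 0.0134 by limma, and of 0.0522 to 0.184 with 1 library left out.

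Xdh and Plscr1 were close to absent from PLZF+ cells. Xdh, which encodes xanthine dehydrogenase, had 113 and 128 normalized counts in A6 and B6, 0 in A7 and 0.558 in B7. The scramblase gene Plscr1 had 125 and 101 in PLZF- cells, 2.48 in A7 and 0 in B7. In the authors' deposited table neither gene was called (q of 0.587 for Xdh and 0.606 for Plscr1), while 13 rows of the list were. The other 5 lower rows were Cd274 (PD-L1, -2.09), Gm24846/Trim12c/Trim5 (-2.17), Mkiaa1554/Rnf213 (-1.34), Ifi203 (-1.01) and the dNTPase gene Samhd1 (-0.86). Jak1, Ptpn6, Mavs, Gvin1, Ifi203, Trim30d, Gm24846/Trim12c/Trim5 and Samhd1 were also not called in the authors' deposited table (q of 0.0594 to 0.62). Over the 22 rows called, the adjusted p by limma ran from 0.00028 to 0.046, and 4 to 15 rows of the list were called with 1 library left out (4 without A6, 8 without A7 and 4 without B7). Epsti1 passed whichever library was left out, with adjusted p of 0.00935 to 0.0276. By FPKM, 8 rows were called, and in limma without trend and robust fit 4.

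Of the genes for antigen processing and related functions that interferon gamma induces, 12 of 15 were tested and 1 was called (Cd274, lower), where 7.46% of all genes tested were called. Their median log2 fold change was 0.048. The proteasome, TAP and B2m genes of that list did not pass.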

How the data were processed

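The tools named in the submitters' processing notes are HISAT 0.1.6, Cufflinks 1.2, Cuffdiff and SAMtools 1.2, with the build mm10. The sources used here do not name the annotation or strand setting. The authors deposited Cuffnorm normalized counts (a signal scaled per library, not raw counts), an FPKM table, and a Cuffdiff table whose p-values and q-values are theirs. The direction of its calls was read from the group means of the FPKM table.

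Rows with the same full name and overlapping positions were summed (46799 rows, 46166 genes, 488 from more than 1 row). Rows that share only part of a longer name stayed apart. Rn45s, listed at 0 in B7 and 26.8% to 33.2% of the total elsewhere, was left out. Genes with a mean of at least 10 were tested with limma 3.58.1 (trend and robust fit) in R 4.3.3 on log2(normalized count + 1), two-sided, threshold 0.05; this scale understates changes of low genes. The test was also run on simulated data with the same spread set for all genes. That run does not show how often the test errs on these libraries. Estimated reads are normalized counts divided by the value of 1 read (0.558 to 1.69); 94.5% to 95.6% of low values lay within 0.05 of a whole read. An exact permutation test of 2 against 2 cannot go below 0.333. Coordinates are those of GENCODE M21 (GRCm38, which mm10 names). Python 3.11.15, pandas 2.3.3 and matplotlib 3.10.9 were used.

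The members and lists were chosen with earlier results of these data known. Members are named, and of the pathway lists those past the threshold and a few fixed genes; Xdh, Plscr1 and others past it fall under that rule. Library codes carry no replicate number. Each library is a pool, so p-values measure the spread between pools. Alternatives were other pseudocounts (0.25, 4), filters, scalings, the FPKM table, a plain limma fit, the code's letter as a term, and each library left out. Some results are not reported here.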

Additional observations from a re-analysis of the deposited data

How the results depend on the processing

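The count of members called, 1 as reported, was 2 with a pseudocount of 4 (Gbp3 added), 3 with the letter of the library code as a term (Gbp3 and Parp14 added), 2 in the authors' deposited table (Parp14 added), and 0 with no filter, in the FPKM table and in limma without trend and robust fit. With 1 library left out it was 0 to 1, and it was 0 without A7 and without B7. The 22 pathway genes called became 13 with no filter, 8 by FPKM, 4 without trend and robust fit, 13 in the authors' deposited table, 29 with the letter as a term, and 4 to 15 with 1 library left out. Over all genes, the 229 called higher became 109 with no filter, 110 by FPKM, 28 without trend and robust fit, 426 with the letter as a term, and 20 to 245 with 1 library left out. The 463 called lower became 277, 246 and 186 under the first 3 of these, 694 with the letter as a term, and 100 to 266 with 1 library left out. The cause was not tested.

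The median log2 fold change of all tested members (-0.64) was -0.41 at a minimum mean of 50 and -0.72 to -0.37 with 1 library left out. The median log2 fold change of IFIT and OAS members (0.29) was -0.74 with no filter and -0.89 to 1.07 with 1 library left out; at a minimum mean of 50 none was left. The median log2 fold change of GBP and IRG members (-0.062) was -0.41 with no filter, 0.10 at a minimum mean of 50, 0.045 with equal library totals, and -0.73 to 0.10 with 1 library left out. Equal totals moved the median of all genes from -0.027 to 0.079. Directions turned for Gbp2 (0.045 with equal totals, 0.021 beside the authors' calls, from FPKM group means), Eif2ak2/Gm6548 (0.32 by FPKM and by FPKM group means), Parp9 (0.019 with equal totals) and Ifngr1 (0.031 with median-ratio scaling, 0.11 with equal totals). With 1 library left out, directions turned for Ifit2 (-0.42 to 1.07), Oas3 (-0.89 to 1.47), Gbp2 (-0.83 to 0.71), Parp9 (-0.47 to 0.29), Ifi35 (-0.20 to 0.22), Gm12185/Tgtp1 (-0.36 to 0.57), Tgtp1/Tgtp2 (-0.30 to 0.47), Stat2 (-0.35 to 0.11) and Ifngr1 (-0.17 to 0.17).

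No paired analysis was possible because the table columns carry no replicate number, and no label says that the letter of a code pairs libraries; the fit with the letter as a term is therefore not read as one. A count model was not run, as whole reads were not recovered for enough values. The PLZF- libraries hold fewer reads, so low genes are measured less precisely there; where a library is left out, the lone one of its subset is assumed to vary like the other subset.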
